A study of Mus musculus with 27 samples.

Results

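The genes described here are 10 members of the MHC class I system: the heavy chain genes H2-K1, H2-D1, H2-Q4, H2-Q6, H2-Q7, H2-T22, H2-T23 and H2-M3, the light chain gene B2m, and Cd1d1. They were taken by Ensembl identifier from a table of 41388 genes, all 10 were found, and all 10 passed the filter on low counts that left 12661 genes for testing. Each was measured by RNA sequencing of macrophages sorted from the dura mater, the outer membrane around the brain, in 27 libraries. All mice were B6 animals with a Rag1 knockout, aged 16 to 19 weeks. Loss of Rag1 stops the development of T cells and B cells, so the hosts lack those that they could have made themselves. In 6 libraries (4 female, 2 male) the mice were at steady state without T cells, and all other mice had received T cells 6.5 weeks earlier. The donor cells were total B6 T cells (5 libraries, 4 female and 1 male) or T cells with a knockout of T-bet (Tbet, 2 female), IFNg (2 female), IL6Ra and IL21R (7, 3 female and 4 male), IL-17AF (2 female) or IL22 (3, 2 female and 1 male). Libraries are named here by sex and a running number within the group (F1, M1).

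MHC class I molecules carry short peptides from inside the cell to its surface, where CD8 T cells read them. A polymorphic heavy chain pairs with β2-microglobulin, the product of B2m. The classical heavy chains of this mouse are H2-K and H2-D. The nonclassical ones of the Q, T and M regions are less polymorphic and include ligands of natural killer receptors and of γδ T cells, while CD1d presents lipids to natural killer T cells. Interferon-gamma is a known inducer of class I genes, acting in part through the class I transactivator Nlrc5, and NF-κB also binds the promoters of the classical genes. Macrophages express class I constitutively and use it to present antigen to CD8 T cells.

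The 8 heavy chain genes lie on chromosome 17 and share long stretches of sequence, which bears on how reads of 75 bases can be assigned to each. One coding window of 75 bases in exon 4 of H2-D1 (chr17:35265885-35265959, plus strand, GRCm38, GENCODE M21) is identical in 5 of the 8 heavy chain genes: H2-D1, H2-Q6, H2-Q7, H2-T22 and H2-T23. The best matching windows are printed below from the GENCODE M21 transcripts, 5′ to 3′, with capitals at bases that differ from the shared window. They are shown because a read that covers only this window belongs equally to 5 of the genes.
H2-D1: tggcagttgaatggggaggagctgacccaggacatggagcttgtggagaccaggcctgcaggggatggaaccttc
H2-T22: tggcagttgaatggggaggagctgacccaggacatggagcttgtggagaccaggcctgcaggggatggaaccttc
H2-K1: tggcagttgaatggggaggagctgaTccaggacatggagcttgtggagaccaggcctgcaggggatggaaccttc
H2-Q4: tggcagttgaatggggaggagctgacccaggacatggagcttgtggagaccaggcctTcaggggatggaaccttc
H2-M3: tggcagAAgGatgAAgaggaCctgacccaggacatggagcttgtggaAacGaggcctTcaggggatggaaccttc
H2-K1 and H2-Q4 each differ from the shared window at 1 base, and H2-M3 at 9. Over whole coding sequences, the share of 75-base windows that occurs again in a transcript of another gene was 0% for B2m and H2-M3, 2.32% for H2-K1, 11.8% for H2-T23 and 13.8% for H2-D1. It was 24.02% for H2-Q4, 24.9% for H2-Q6, 26.4% for H2-T22, 29.7% for Cd1d1 and 37.7% for H2-Q7. The kit kept no strand, and 29.4% of the exonic bases of H2-T22 overlap A930015D03Rik and 19.1% of those of H2-Q4 overlap Gm11131, both on the opposite strand. Those 2 genes had at most 2 and 96 counts in any library. Values of the H2-Q genes, H2-T22 and Cd1d1 therefore carry an uncertainty of assignment that B2m, H2-M3 and H2-K1 largely lack.

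The promoters of the members show which of them carry the textbook interferon and NF-κB motifs. RefSeq promoters (GRCm38.p6, 250 bases before to 50 after the start) were found for 9 members, all but Cd1d1, and were searched on both strands. The interferon response element core was searched as GAAANNGAA and, chosen after the sequences were seen, in its second form GAANNGAAA. The first form matched in 3 of the 9 (H2-T22, H2-T23 and B2m) and in 8.56% of all 32851 promoters in the table. The second form matched in 6 of the 9 (H2-K1, H2-D1, H2-Q4, H2-Q6, H2-Q7 and H2-M3) and in 7.52% of all promoters, and no member matched both. The NF-κB core GGGATTCCC matched in 4 of the 9 (H2-K1, H2-D1, H2-Q6 and H2-Q7) and in 0.353% of all. The CRE-like core TGACG matched in 7 of the 9, all but H2-Q6 and H2-T23, and in 20.8% of all. A stretch of 100 upstream bases is printed for 5 members, 5′ to 3′ on the gene's strand, with capitals at every match to these motifs. They are shown because they set the classical pair beside a Q-region gene, the T-region gene H2-T22 and B2m.
H2-K1 (chr17:34000368-34000467, minus strand): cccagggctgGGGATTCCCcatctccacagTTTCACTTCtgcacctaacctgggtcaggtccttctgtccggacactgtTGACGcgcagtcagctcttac
H2-D1 (chr17:35262914-35263013, plus strand): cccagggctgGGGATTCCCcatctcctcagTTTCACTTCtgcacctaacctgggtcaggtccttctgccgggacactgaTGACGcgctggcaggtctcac
H2-Q7 (chr17:35439013-35439112, plus strand): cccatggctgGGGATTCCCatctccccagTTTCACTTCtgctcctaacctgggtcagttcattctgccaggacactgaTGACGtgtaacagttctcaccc
H2-T22 (chr17:36042843-36042942, minus strand): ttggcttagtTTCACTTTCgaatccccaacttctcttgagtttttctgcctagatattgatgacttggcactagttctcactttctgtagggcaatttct
B2m (chr2:122147538-122147637, plus strand): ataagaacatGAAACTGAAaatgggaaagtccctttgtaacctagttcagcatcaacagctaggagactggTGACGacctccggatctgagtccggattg
In H2-K1 the NF-κB match lies at positions -110 to -102 from the RefSeq start and the interferon element match at -90 to -82. In H2-D1 the same pair lies at -170 to -162 and -150 to -142. A match describes letters only and is not evidence of a bound site.

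The libraries fall into 3 sets that the labels do not name, and this touches every comparison below. Ribosomal protein genes, which have many near-identical copies, summed to 29904 to 36929 CPM (counts scaled to library size) in 7 libraries (set A), 12368 to 17439 in 13 (set B) and 7994 to 9432 in 7 (set C). The boundaries were drawn from these levels and from Rpl31 after they were seen. Set A is made up of 4 steady-state libraries and 3 libraries of the total T cell group, and set B of 2 of each, 6 of the IL6Ra/IL21R group and all 3 of the IL22 group. Set C holds all libraries of the T-bet, IFNg and IL-17AF groups and library M4 of the IL6Ra/IL21R group. The T-bet, IFNg and IL-17AF groups thus share no set with either control group, and for them set and donor genotype cannot be told apart. Set C also had more fibroblast marker RNA: all 6 markers had counts and summed to 2270 to 3660 CPM in set C, against 240 to 836 in set A and 250 to 1443 in set B. The 5 neutrophil markers summed to 28.6 to 821 CPM in set A, 0 to 29.8 in set B and 0 to 28.2 in set C. The 12 macrophage markers all had counts in each group and summed to 25801 to 35615 CPM over the 27 libraries. Of 14 T cell markers, 10 had counts in the steady-state group, where Cd3g, Trac, Trbc1 and Trbc2 were at 0, and all 14 had counts with total T cells. They summed to 80.1 to 181 CPM in the steady-state group, 48.3 to 138 with total T cells, 102 to 208 in the IL6Ra/IL21R group and 159 to 228 in the other 4 groups. Cd4 had 295 to 3067 counts in every library, and Trac, Trbc1 and Trbc2 at most 15. Highest counts with total T cells and without were 76 and 6 for Cd8a, 70 and 8 for Cd3d and 61 and 1 for Ifng. They were 59 and 11 for Lck and 43 and 12 for Cd8b1. Each of these was also at 0 in at least 1 library of both groups. Of the 14, only Cd4 had a lower highest count with total T cells, at 1336 against 1793. The part of the fibroblast, neutrophil and T cell signals in any result was not tested. Library totals ran from 6902602 to 19966749 counts.

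Levels between genes were compared as CPM per kilobase of exon. In mice with total T cells, B2m stood highest at 5997 ± 760 (SD, n = 5), followed by H2-D1 at 1774 ± 125 and H2-K1 at 1347 ± 182. H2-T23, which encodes Qa-1, a ligand of the NKG2A receptor, followed at 227 ± 40.8. H2-Q4, H2-Q6, H2-M3, H2-T22 and H2-Q7 lay between 99.2 and 41.1 in that order, and the ranges of mean ± SD of neighbours in this order overlap. Cd1d1 was lowest at 6.18 ± 2.83. Counts of windows that occur once, used in place of exon length, gave the same order but other levels. With total T cells H2-K1 then moved from 1347 ± 182 to 1093 ± 148. H2-T22 moved from 49.3 ± 20.2 to 75.9 ± 31.1. Of 70 levels over all genes and groups, 36 were classed as the same and 34 as moved. Such a count is not a length, since H2-K1 has 3621 such windows and 2938 exon bases. On the scale of CPM, the classical pair made up 82.2% to 89.2% of the summed heavy chain CPM in every library.

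Macrophages of mice given total B6 T cells had more class I RNA than macrophages of mice without T cells. Of the 10 genes, 8 rose: H2-K1, H2-D1, H2-Q4, H2-Q6, H2-Q7, H2-T22, H2-T23 and B2m, by 1.51-fold to 2.49-fold. Over all genes tested, 11.5% rose. The median of the 10 log2 fold changes was 0.79, and that of all genes tested was -0.03. In bulk RNA a change in the make-up of the sorted cells and a change per cell cannot be told apart. Tests are edgeR's quasi-likelihood test with sex as a term, and a gene was called at a Benjamini-Hochberg adjusted p under 0.05 over all genes.

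The classical genes came first in level among the heavy chain genes. H2-K1 (chr17:33996017-34000347) stood at 1870, 2161 and 2398 CPM (lowest, median and highest of 6) without T cells. With total T cells its 5 libraries read 4072, 3961, 3321.5, 3671 and 4763 CPM. Every library with T cells lay above every library without, and the fitted log2 fold change was 0.88 ± 0.14 (SE, adjusted p = 0.000109). H2-D1 (chr17:35262730-35267499) went from 2782, 2984 and 3459 CPM to 4518, 4911, 4351, 4193 and 4901 CPM. The groups again did not overlap, and the log2 fold change was 0.60 ± 0.10 (adjusted p = 0.000309).

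B2m (chr2:122147686-122153083), which shares no 75-base window with another gene, moved with them. It stood at 3090, 3312 and 3637 CPM in the 6 steady-state libraries, and at 4900, 4694, 4885, 4998 and 6310 CPM with total T cells. No library overlapped, and library M1, the only male of its group, stood apart at the top. The log2 fold change was 0.63 ± 0.12 (adjusted p = 0.000548).

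The Q-region genes and H2-T22 had the largest fold changes of the 10. H2-Q7 (chr17:35439155-35443773), which encodes the Qa-2 antigen, went from 46.5, 68.1 and 99.6 CPM to 227, 158, 94.1, 136 and 260 CPM. The lowest library with T cells, F3, lay below the highest without, and the log2 fold change was 1.32 ± 0.27 (adjusted p = 0.0012). H2-Q6 (chr17:35424850-35430055), its neighbour, went from 56.0, 81.2 and 100.5 CPM to 225, 188, 124, 139 and 262 CPM, with no overlap and a log2 fold change of 1.201 ± 0.244 (adjusted p = 0.00121). H2-Q4 (chr17:35379617-35385290) rose by 0.91 ± 0.14 on the log2 scale (adjusted p = 0.000104), from 101 to 159 CPM without T cells to 196 to 309 CPM with them. These groups did not overlap either.

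Of the T-region genes, H2-T22 (chr17:36037128-36042747) encodes a ligand of a subset of γδ T cells that is not known to carry peptide. It stood at 52.5, 77.3 and 96.7 CPM without T cells and at 252, 130, 97.8, 130 and 232 CPM with total T cells. The groups did not overlap, although library F3 lay next to the highest control, and F1 and M1 stood well above the other 3. The log2 fold change was 1.18 ± 0.22 (adjusted p = 0.000559). H2-T23 (chr17:36029773-36032855) ran from 353 to 455 CPM without T cells and from 542 to 793 CPM with them, and rose by 0.69 ± 0.13 (adjusted p = 0.000593).

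H2-M3 and Cd1d1 did not pass the test. H2-M3 (chr17:37270220-37274484), whose product presents N-formylated peptides, read 80.8, 93.7 and 100.3 CPM without T cells and 98.2, 116, 100.1, 123 and 122 CPM with them. Its libraries overlapped, and its log2 fold change was 0.27 ± 0.13 (adjusted p = 0.154). Cd1d1 (chr3:86995834-86999441) had 66 to 412 counts in these libraries and a log2 fold change of 0.40 ± 0.29 (adjusted p = 0.353).

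The fold changes were also fitted within each set that holds both groups. Within set A (4 against 3 libraries) the same 8 genes were called, with log2 fold changes of 0.95 for H2-K1, 0.64 for H2-D1 and 0.68 for B2m. Within set B (2 against 2) none was called: H2-K1 was at 0.78 (adjusted p = 0.0612), H2-D1 at 0.55 (adjusted p = 0.108) and B2m at 0.57 (adjusted p = 0.0735). The share of all genes called within either set is not given here, so neither count has a background beside it. The difference of the effect between sets was called for 0 of 12780 genes by edgeR, and for none of the 10 at an unadjusted p under 0.05, against 1257 of all genes. Its estimate, set B minus set A, was negative for all members but Cd1d1 (0.39 ± 0.61, SE). The others ran from -0.65 ± 0.40 for H2-Q7 to -0.03 ± 0.22 for H2-M3. Dendritic cell markers moved with class I: all 6 had counts, and they summed to 41.7 to 86.1 CPM without T cells and 94.1 to 182 CPM with total T cells. The 6 fibroblast markers moved the other way, from 426 to 1443 CPM without T cells to 240 to 391 CPM with total T cells. Neither list overlapped between these groups, and the part of either in the result was not tested.

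**Figure D1:**
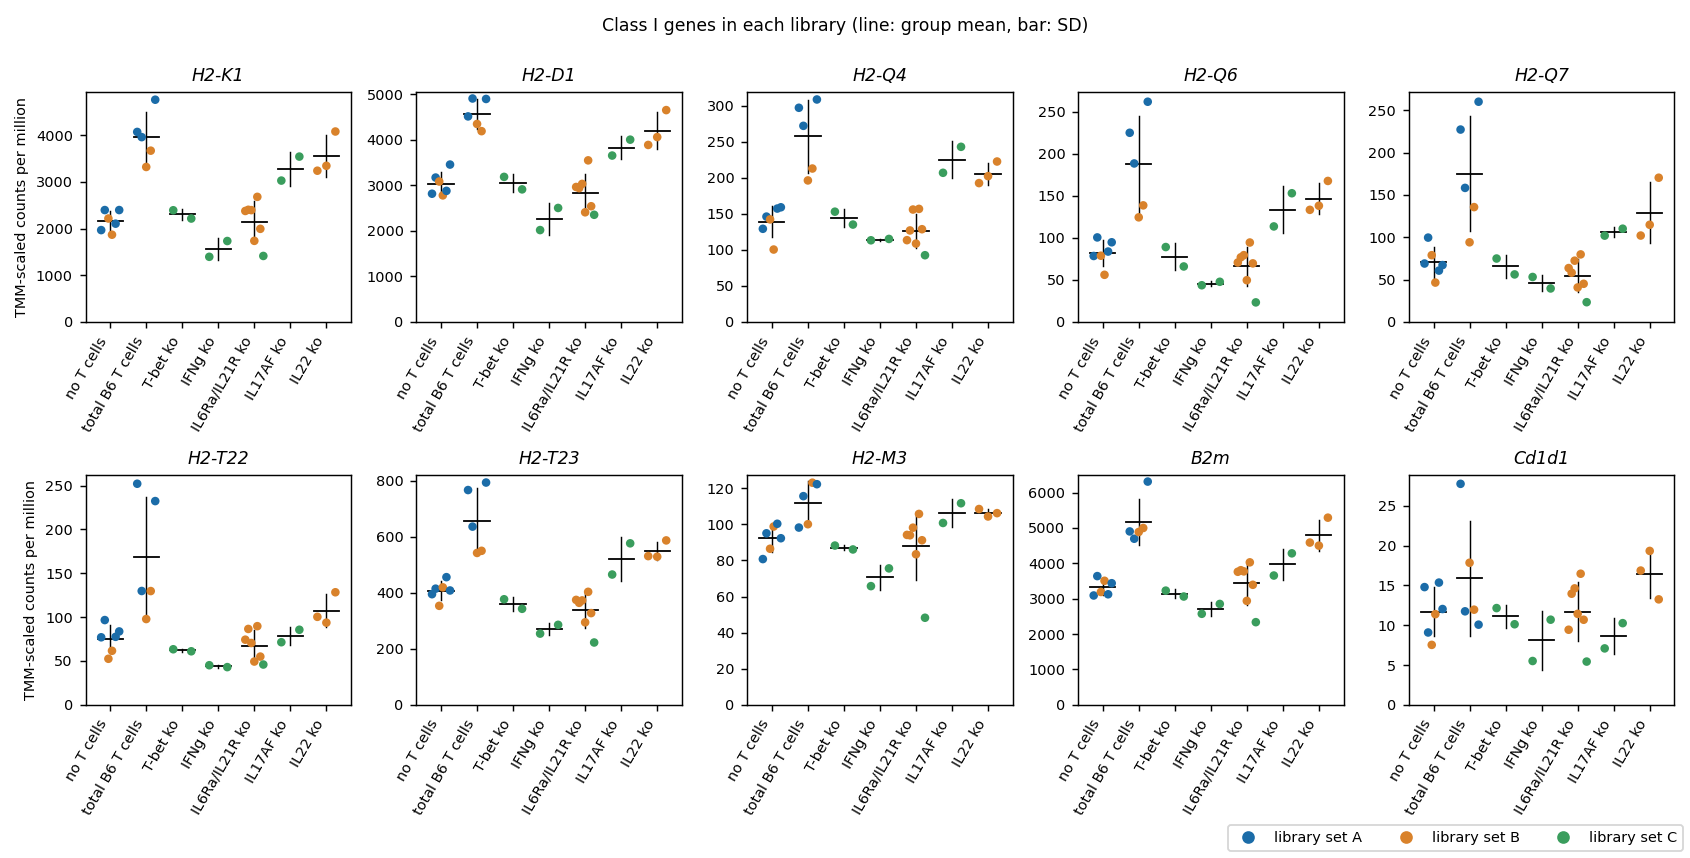
Each panel plots the TMM-scaled CPM of 1 class I gene (vertical axis, linear from 0) in the 27 libraries by group, with points coloured by library set, a line at the group mean and a bar of ± 1 SD. H2-K1, H2-D1 and B2m with total B6 T cells lie above every library without T cells, and library M4 of the IL6Ra/IL21R group, in set C, is the lowest of its group in all 10 panels.

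Donor T cells without T-bet, without IFNg or without IL6Ra and IL21R left class I RNA below the level seen with total T cells. T-bet is the transcription factor of T helper 1 cells, the main CD4 source of interferon-gamma, and the IL-6 and IL-21 receptors drive the T helper 17 programme. Against total T cells, 8 of the 10 genes fell with T-bet knockout cells (14.2% of all genes fell), 9 with IFNg knockout cells (18.5%) and 8 with IL6Ra/IL21R knockout cells (14.8%). The 8 genes were the same that rose with total T cells, H2-M3 was the ninth with IFNg knockout cells, and Cd1d1 was called in none. The medians of the 10 log2 fold changes were -0.79, -1.21 and -0.93, where those of all genes were 0.01, -0.02 and 0.03. All these comparisons share the 5 libraries with total T cells. Dendritic cell markers, all 6 with counts, were below the total T cell range of 94.1 to 182 CPM in the T-bet (48.5 to 71.9), IFNg (31.9 to 69.5) and IL-17AF (53.7 to 71.8) groups, and overlapped it in the IL6Ra/IL21R (47.9 to 122) and IL22 (77.5 to 106) groups. Their part in these results was not tested. With library set as a term, none of the 10 genes was called for T-bet or IFNg, and the sign turned for H2-K1 (0.0455), H2-Q6 (0.81) and H2-Q7 (0.33) with T-bet and for H2-Q6 (0.0503) and H2-M3 (0.33) with IFNg knockout cells. For these groups that term rests on 1 library, M4 of the IL6Ra/IL21R group.

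With IFNg knockout T cells, H2-K1 read 1396 and 1734 CPM, below all 5 libraries with total T cells and all 6 without T cells. The IFNg libraries lie in set C and those control libraries in sets A and B. In the rest of set C, H2-K1 read 1414 CPM in IL6Ra/IL21R library M4 and 2216 to 3544 CPM in the T-bet and IL-17AF libraries. H2-K1 fell by 1.33 ± 0.20 on the log2 scale with IFNg knockout cells against total T cells (adjusted p = 5.77e-05). H2-D1 read 2019 and 2505 CPM and fell by 1.01 ± 0.15 (adjusted p = 5.30e-05). B2m read 2572 and 2850 CPM and fell by 0.93 ± 0.17 (adjusted p = 0.000314).
H2-Q6 and H2-T22 had larger fitted falls than H2-K1, a difference that was not tested. H2-Q6 read 43.6 and 47.7 CPM and fell by 2.01 ± 0.38 (adjusted p = 0.000391), and H2-T22 read 45.1 and 43.0 CPM and fell by 1.91 ± 0.34 (adjusted p = 0.000222). H2-M3 read 65.8 and 75.6 CPM and fell by 0.67 ± 0.19 (adjusted p = 0.00981), a call lost without IFNg library F1 (adjusted p = 0.137).

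With T-bet knockout T cells, H2-K1 read 2394 and 2216 CPM, inside the range of the mice without T cells, and fell by 0.77 ± 0.20 against total T cells (adjusted p = 0.00520). H2-T22 read 63.4 and 61.0 CPM and fell by 1.41 ± 0.33 (adjusted p = 0.00272). B2m read 3227 and 3060 CPM and fell by 0.71 ± 0.17 (adjusted p = 0.00308). This group rests on 2 libraries whose column names share a stem, so that they may come from 1 animal. All 78 ribosomal protein genes tested also fell in this comparison, with a median log2 fold change of -2.32. All 78 fell as well with IFNg (median -2.21) and IL-17AF knockout cells (-2.13) against total T cells. With IL6Ra/IL21R knockout cells 74 fell (-1.72), and with IL22 knockout cells 0 were called (-1.56). Both T-bet libraries lie in set C, and the sets were drawn from ribosomal protein levels. Without library F2 the count of genes that fell dropped from 8 to 2.

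The IL6Ra/IL21R group has 7 libraries, 6 of them in set B beside 2 libraries of each control group. H2-K1 ran at 1414, 2378 and 2681 CPM (lowest, median, highest) and fell by 0.89 ± 0.13 against total T cells (adjusted p = 3.98e-05). H2-D1 ran at 2355, 2942 and 3551 CPM and fell by 0.70 ± 0.10 (adjusted p = 3.13e-05). H2-Q7 ran at 23.3, 58.2 and 79.8 CPM and fell by 1.68 ± 0.26 (adjusted p = 5.14e-05).
Within set B alone, where the groups share a set, 6 of the 10 genes fell: H2-K1 by 0.62 (adjusted p = 0.0273), H2-D1 by 0.56 (adjusted p = 0.0247), H2-Q4, H2-Q6, H2-T23 and B2m. With set as a term and without the set C libraries, 8 fell. The share of all genes that fell in these fits is not given here, so these counts have no background beside them. Library M4, the only one of set C in this group, was the lowest for all 10 genes and read 23.2 CPM for H2-Q6 where the other 6 read 49.6 to 94.4 CPM.

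Against the mice without T cells, few genes were called in the same 3 groups. With T-bet knockout cells 0 of the 10 genes were called against no T cells (7.30% of all genes; 0 of the 10 and 2911 of all genes at an unadjusted p under 0.05 in edgeR, and 0 of the 10 and 1289 of all called by DESeq2). With IL6Ra/IL21R knockout cells 0 were called as well (1.16% of all genes; 1 of the 10, H2-T23, and 1367 of all at an unadjusted p under 0.05, and 0 and 256 by DESeq2). With IFNg knockout cells H2-T23 fell below the level without T cells, by 0.58 ± 0.18 (adjusted p = 0.0385), where 6.22% of all genes fell, and 6 of the 10, against 3675 of all 12661 genes, had an unadjusted p under 0.05. H2-K1 there had a log2 fold change of -0.45 ± 0.19 (adjusted p = 0.114). The call for H2-T23 was lost when any one of no T cell libraries F2, F4 or M1 or either IFNg library was left out, and 2 or 5 genes were called without IL6Ra/IL21R library M2 or M4, which enter through the shared spread and the sex term.

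**Figure D2:**
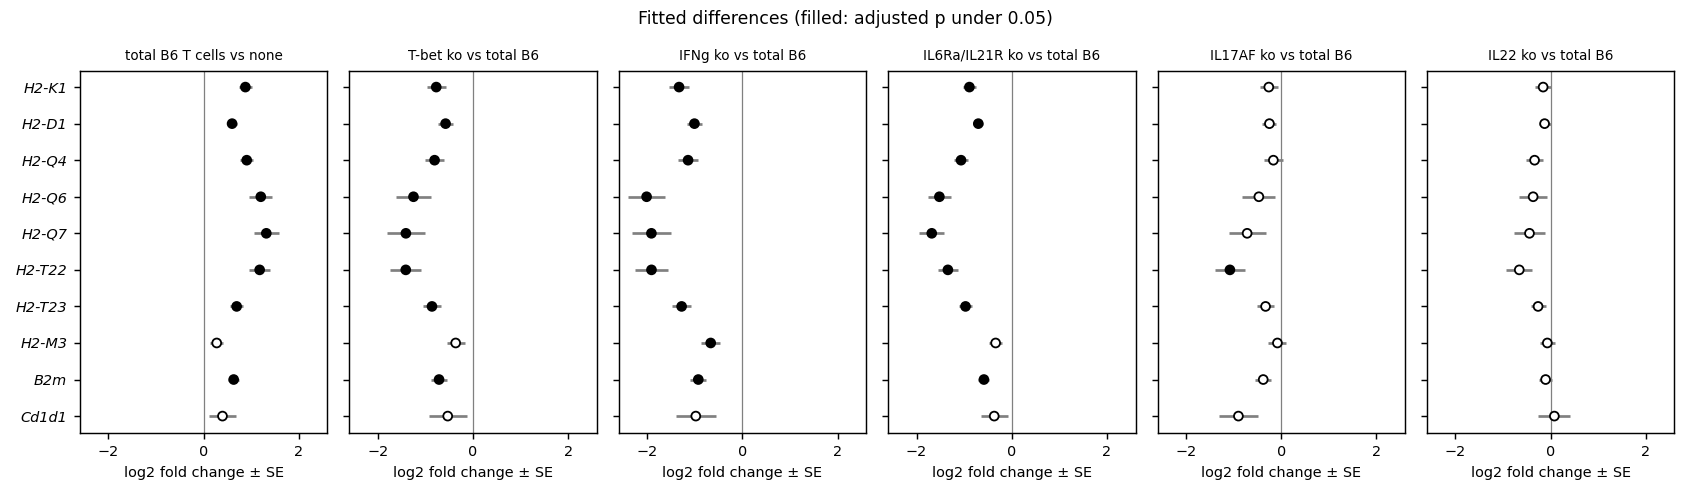
Each panel plots the fitted log2 fold change ± SE (horizontal axis) of the 10 class I genes in 1 comparison, with filled points for an adjusted p under 0.05 in edgeR's quasi-likelihood test. Total B6 T cells against none has 8 filled points above 0, the T-bet, IFNg and IL6Ra/IL21R panels have 8, 9 and 8 below 0, and the IL-17AF and IL22 panels have 1 and 0.

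Donor cells without IL-17AF or IL22 gave class I levels that were mostly not called different from those with total T cells. IL-17A and F and IL-22 are cytokines of T helper 17 cells and their relatives. Against total T cells, 1 of the 10 genes fell with IL-17AF knockout cells, where 11.6% of all genes fell: H2-T22 read 71.4 and 85.6 CPM and fell by 1.08 ± 0.32 (adjusted p = 0.0173). That call was lost without either IL-17AF library, and 2 genes were called without IL6Ra/IL21R library M4. H2-T22 is also the member with the largest difference between sets A and B. With IL-17AF knockout cells against total T cells, H2-T22, B2m and Cd1d1 had an unadjusted p under 0.05 in edgeR. That is 3 of the 10, against 4636 of all genes. H2-K1 read 3030 and 3544 CPM, with a log2 fold change of -0.26 ± 0.19 (adjusted p = 0.344). With IL22 knockout cells 0 of the 10 were called against total T cells, where 0.284% of all genes were called in either direction; 1 of the 10, against 2196 of all genes, had an unadjusted p under 0.05, and DESeq2 called 0 of the 10 and 723 of all.
H2-K1 there read 3241, 3346 and 4082 CPM with a log2 fold change of -0.16 ± 0.17 (adjusted p = 0.693).

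Both groups were also compared with mice without T cells. With IL-17AF knockout cells 2 of the 10 genes rose, where 3.99% of all genes rose: H2-K1 by 0.62 ± 0.18 (adjusted p = 0.0444) and H2-Q4, at 207 and 243 CPM, by 0.74 ± 0.19 (adjusted p = 0.0229). Leaving out either IL-17AF library left 0 called. Leaving out a single library of another group left 1 called in most cases, among them each library without T cells, total T cells F2, F3, F4 and M1, both T-bet libraries, IL6Ra/IL21R F2, M2 and M3, and each IL22 library.
With IL22 knockout cells 0 of the 10 were called by edgeR (0.0079% of all genes), 7 of the 10, against 1194 of all genes, had an unadjusted p under 0.05, and DESeq2 called 3 (H2-K1, H2-D1 and B2m), against 145 of all. H2-K1 had a log2 fold change of 0.72 ± 0.16 (adjusted p = 0.0937) and B2m, at 4585, 4499 and 5289 CPM, of 0.52 ± 0.13 (adjusted p = 0.140). Without IL6Ra/IL21R library M4, 2 genes were called. With set as a term and without set C, 4 were called, with H2-K1 at 0.84 (adjusted p = 0.0152) and H2-Q6 at 1.21 (adjusted p = 0.00850). The share of all genes called in that fit is not given here.

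The comparison of IL22 with IL6Ra/IL21R knockout cells can be made within set B. Over all libraries 0 of the 10 genes were called by edgeR (0.0079% of all genes), while 8 of the 10, against 1088 of all genes, had an unadjusted p under 0.05, and DESeq2 called 6 of the 10 and 83 of all. H2-K1 had a log2 fold change of 0.73 ± 0.15, H2-D1 of 0.58 ± 0.12 and H2-T23 of 0.71 ± 0.15, each with an adjusted p of 0.0552. Within set B, 6 were higher with IL22 knockout cells: H2-K1 by 0.65 (adjusted p = 0.0214), H2-D1 by 0.53, H2-Q4 by 0.65, H2-Q6 by 1.00, H2-Q7 by 1.11 and H2-T23 by 0.62. The share of all genes called within set B is not given here. The count of genes called ran from 0 to 6 when single libraries were left out, with 6 without IL6Ra/IL21R M2, 4 without IL6Ra/IL21R M4, total T cell F1 or total T cell F3, and 3 without total T cell M1.

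The 3 groups of set C could be compared with each other at 2 libraries each. IL-17AF against the mean of T-bet and IFNg called 0 of the 10 genes by edgeR (0.0079% of all genes); 8 of the 10, against 498 of all genes, had an unadjusted p under 0.05, DESeq2 called 0 of the 10 and 4 of all, and the lowest adjusted p was 0.393, for H2-K1 at 0.79 ± 0.19. Without IFNg library F2, 1 gene was called. Both IL-17AF libraries lay above all 4 of the others for H2-K1, which read 1396 to 2394 CPM there. T-bet against IFNg called 0 of the 10 (0% of all genes); 2 had an unadjusted p under 0.05, against 445 of all genes, H2-K1 at 0.56 ± 0.23 and H2-D1 at 0.43 ± 0.17, and DESeq2 called 0 genes in all. In a single test over the 7 groups, 8 of the 10 genes differed (38.0% of all genes), all but H2-M3 (adjusted p = 0.0630) and Cd1d1 (adjusted p = 0.201).

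The order of the group means was similar across genes. Total T cells came first for all but Cd1d1, and IFNg knockout cells came last for all 10. IL22 and IL-17AF knockout cells held the next places after total T cells for the 8 heavy chain genes and B2m, and T-bet, IL6Ra/IL21R and no T cells held the places after them. Several neighbouring pairs, such as total T cells and IL22 for H2-K1, were not called different, and others were not tested.

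Ratios between members describe the balance among them. The ratio of H2-K1 to H2-D1, in CPM, was 0.711 ± 0.0297 (SD, n = 6) without T cells and 0.864 ± 0.0815 (n = 5) with total T cells. The libraries ran from 0.672 to 0.756 and from 0.763 to 0.972, so the groups did not overlap. It was 0.751 and 0.7605 in the T-bet libraries, 0.691 and 0.692 in the IFNg libraries, 0.828 and 0.885 in the IL-17AF libraries, and 0.844 ± 0.0283 (n = 3) in the IL22 libraries. In the IL6Ra/IL21R group it was 0.753 ± 0.0743 (n = 7), with library M4 lowest at 0.600. The ratio was chosen after the values were seen and has no test. The summed CPM of the 8 heavy chain genes over that of B2m was 1.82 ± 0.148 at steady state and 1.97 ± 0.191 with total T cells, with overlapping ranges of 1.55 to 1.97 and 1.81 to 2.21. H2-Q6 over H2-Q7 ran from 0.999 to 1.41 without T cells and from 0.990 to 1.32 with total T cells, also overlapping.

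**Figure D3:**
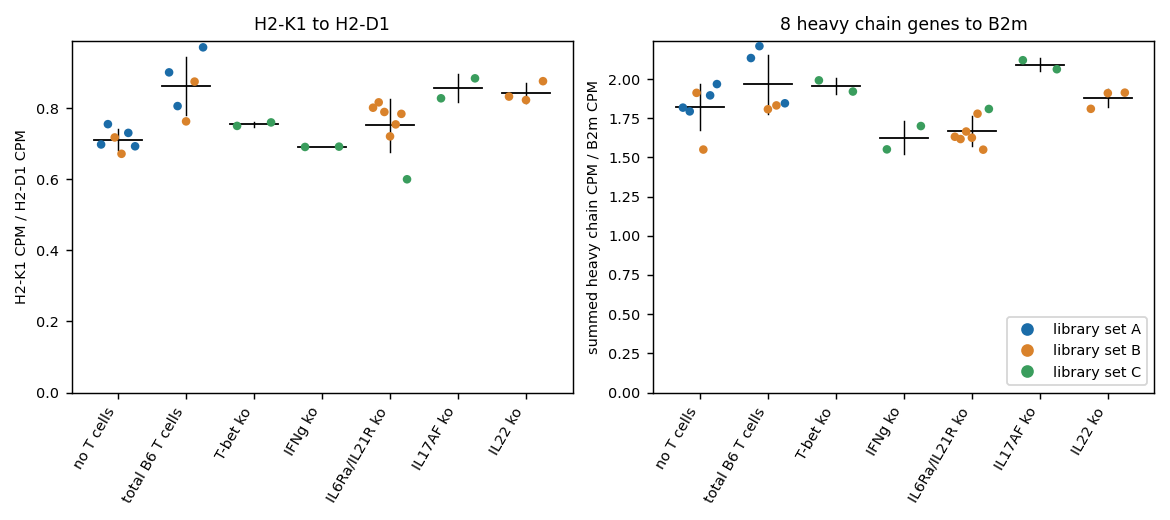
The left panel plots the CPM of H2-K1 over that of H2-D1, and the right panel the summed CPM of the 8 heavy chain genes over that of B2m, for each of the 27 libraries by group, with points coloured by library set, a line at the group mean and a bar of ± 1 SD. On the left, libraries with total B6 T cells (0.763 to 0.972) lie above those without T cells (0.672 to 0.756), and on the right these 2 groups overlap.

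Genes that load and regulate class I were read from a list of 24. Of these, 16 rose with total T cells against none (11.5% of all genes) and 0 fell, with a median log2 fold change of 0.60. Tap1 (chr17:34187553-34197225), a subunit of the peptide transporter, went from 217 ± 29.1 CPM (n = 6) to 714 ± 255 CPM (n = 5), a log2 fold change of 1.72 ± 0.19 (adjusted p = 1.59e-05). Nlrc5 (chr8:94434356-94527272), the class I transactivator, went from 27.3 ± 2.74 to 71.0 ± 31.4 CPM, a log2 fold change of 1.38 ± 0.22 (adjusted p = 0.000120). The 8 of the 24 that were not called were Canx, Pdia3, Hspa5, Irf1, Rfx5, Rfxap, Rfxank and Ube2l6. Of these 24, 10 fell with T-bet knockout cells against total T cells (14.2% of all genes), 17 with IFNg (18.5%), 16 with IL6Ra/IL21R (14.8%), 12 with IL-17AF (11.6%) and 0 with IL22 knockout cells (0.284% called in either direction), and 0 rose in any of the 5.
Within set B alone, Tap1 was called with total T cells (log2 fold change 1.19, adjusted p = 0.0270) and Nlrc5 was not (0.59, adjusted p = 0.340). Tap1 fell against total T cells with T-bet (by 1.81 ± 0.30, adjusted p = 0.000175) and with IL-17AF knockout cells (by 1.17 ± 0.29, adjusted p = 0.00542). Nlrc5 was at 50.6 ± 7.66 and 70.9 ± 6.08 CPM in those groups, with log2 fold changes of -0.45 ± 0.31 (adjusted p = 0.293) and 0.04 ± 0.30 (adjusted p = 0.942). The call for Tap1 with IL-17AF was lost without IL-17AF library F1 (adjusted p = 0.101). Against no T cells Nlrc5 rose with IL-17AF knockout cells, by 1.42 ± 0.28 (adjusted p = 0.00680), a call lost without either IL-17AF library (adjusted p up to 0.107). The T-bet, IFNg and IL-17AF groups lie in set C only.

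Other class I and class I-like genes moved in both directions. Of 34 such genes listed, 29 were in the table and 10 passed the filter on low counts. With total T cells against none, 3 of the 10 rose and 1 fell, where 11.5% of all genes rose and 1215 of 12661 fell. H2-M2 went from 6.89 ± 5.39 to 32.6 ± 18.1 CPM (log2 fold change 2.28 ± 0.60, adjusted p = 0.00859). H2-Q5 went from 11.9 ± 1.92 to 18.5 ± 5.98 CPM (0.63 ± 0.21, adjusted p = 0.0319), and shares 249 windows of 75 bases with H2-Q7. Procr, the endothelial protein C receptor, went from 3.94 ± 3.35 to 68.8 ± 61.5 CPM (4.04 ± 0.60, adjusted p = 7.54e-05), with libraries between 10.3 and 170 CPM. Hfe, whose product regulates iron uptake, went the other way, from 263 ± 31.4 to 169 ± 73.4 CPM (-0.69 ± 0.18, adjusted p = 0.00920). In the 5 knockout groups Hfe had means of 276 to 295 CPM.

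The 10 genes varied together across the 27 libraries, a description in which all points share library, depth and scaling. Over pairs of the 8 genes other than H2-M3 and Cd1d1, Pearson's r of log2 CPM lay between 0.85 and 0.98, with a median of 0.92. Pairs with H2-M3 had r between 0.53 and 0.85, and pairs with Cd1d1 between 0.43 and 0.57. Outside the 10, the 5 genes most like the mean z score of the members over the 27 libraries were Gbp3 (Pearson r 0.96, Spearman rho 0.93), Klra2 (0.96 and 0.91), H2-DMb1 (0.95 and 0.95), Slamf8 (0.95 and 0.94) and Tap1 (0.95 and 0.97). Within set A alone r ran from 0.94 to 0.99 for these 5, and within set B from 0.93 to 0.96. Gbp3, a guanylate binding protein, had means of 79.0 CPM without T cells, 222 with total T cells and 53.7 with IFNg knockout cells.

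The members were also set beside the ribosomal protein genes between sets A and B, in the 2 groups that both sets hold. The sets were drawn from ribosomal protein levels, so their difference is a description: its median over 78 genes tested was -1.71 on the log2 scale, from -9.09 to 0.17. None of the 10 members was called higher or lower in set B (0.297% and 1.25% of all genes were), and 4 of the 10, against 1476 of all genes, had an unadjusted p under 0.05 in edgeR. DESeq2 was not run on this comparison. These 4 were H2-T22 (-0.66 ± 0.19, adjusted p = 0.154), H2-Q6 (-0.52 ± 0.15, adjusted p = 0.168), H2-Q7 (-0.57 ± 0.24, adjusted p = 0.382) and H2-Q4 (-0.32 ± 0.13, adjusted p = 0.338). H2-K1 was at -0.14 ± 0.11, H2-D1 at -0.08 ± 0.10, B2m at 0.03 ± 0.11 and H2-M3 at 0.08 ± 0.12.
These 4 and Cd1d1 (-0.36 ± 0.33) are the 5 members with the largest share of coding windows found in another gene. H2-T23 was at -0.20 ± 0.12. For 14 ribosomal protein genes with a coding share of at most 36.9% the difference ran from -0.61 to 0.17 with a median of -0.27, where the members had a median of -0.26. For the 64 with a share of at least 40.0% it ran from -9.09 to -0.25 with a median of -2.20. The part of shared sequence in these differences was not tested. The fold change of total T cells against none was of the same sign in both sets for all 10 members, those with no shared window (B2m and H2-M3) included.

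**Figure D4:**
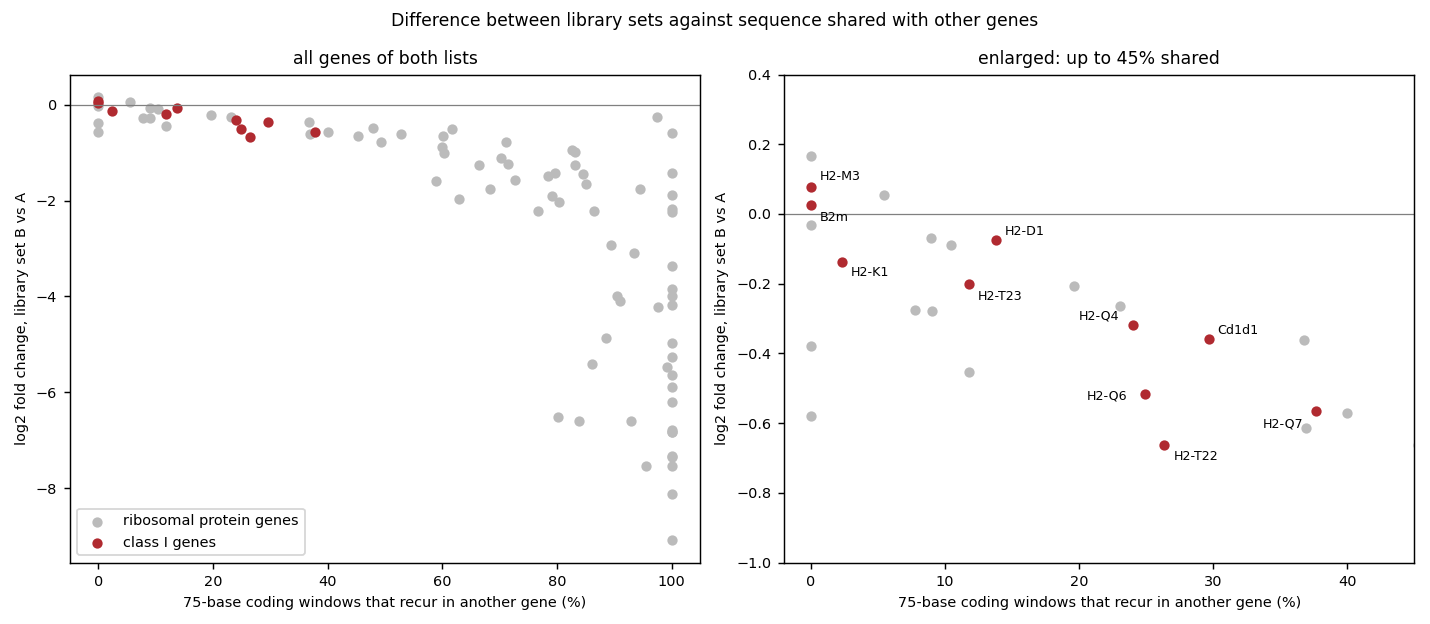
Each point is a gene, with the percent of its 75-base coding windows that recur in another gene on the horizontal axis and its log2 fold change of library set B against set A on the vertical axis; the right panel enlarges the left up to 45%. The class I genes lie between -0.66 and 0.08, H2-T22 lowest, while ribosomal protein genes with a high share reach -9.09.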

How the data were processed

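Dural macrophages were sorted and their RNA sequenced with an unstranded kit and single 75-base reads, per the labels' protocols. The submitters' processing notes name the genome build GRCm38 and the tools featureCounts, STAR 2.4.0j and DESeq2 1.20.0. The sources used here do not give the sort's markers or how reads that match several places were counted. The deposited table is named as normalized, but it holds whole-number counts per gene with unequal totals, and was used as raw counts (6902602 to 19966749 per library). Columns were matched to groups by name. They carry sex and numbers that could not be tied to the replicate numbers of the sample titles. Some names, such as nth17_m131415 (library M4 of the IL6Ra/IL21R group), run several digits together, and whether these libraries pool animals is not stated. The labels do not tie libraries to separate animals. The p-values therefore reflect library-to-library spread only, which may be technical. The 52 pairs of libraries within groups differed by more than sampling noise (chi-square per degree of freedom 8.97 to 138, and 11.7 for the T-bet pair, using genes whose summed count in both libraries reached 20).

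Genes with a mean TMM-scaled count of at least 10 were kept (12661). One edgeR 4.0.16 quasi-likelihood model (R 4.3.3) was fitted to all 27 libraries with group and sex, and p-values were adjusted by Benjamini-Hochberg within each comparison. CPM are scaled by TMM, and log2 CPM used for correlations add a prior count of 1. The ribosomal protein and Rpl31 CPM that define the library sets are the exception: they were scaled by library total alone. The fit was tested on simulated data. DESeq2 1.42.0, other scalings, no filter, no sex term, females only, library sets and leaving out single libraries were tried. Shared windows were counted over GENCODE M21 transcripts, with the longest open reading frame as coding sequence. Coordinates are GRCm38. The members, lists and rules for naming genes (all members; Nlrc5 and Tap1; other class I genes called with total T cells; the 5 genes most like the members) were chosen with earlier results of these data known. Library sets, the second interferon element form, the H2-K1 to H2-D1 ratio and the fit without set C were chosen after seeing the data. Outliers were sought in groups of 5 to 7 libraries by Dixon's test. One motif that was searched is not reported here.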

Additional observations from a re-analysis of the deposited data

Results flagged for a closer look

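A single library stood far from the others of its group in 2 of 30 tests of the 10 class I genes in the 3 groups of 5 to 7 libraries, and chance gives about 1 in 20. H2-M3 read 48.2 CPM in library M4 of the IL6Ra/IL21R group, where the other 6 read 83.4 to 106 CPM. That library is the only one of its group in set C. B2m read 6310 CPM in library M1 with total T cells, where the other 4 read 4694 to 4998 CPM. That library is the only male of its group.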

How the results depend on the processing

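No paired analysis was possible because the numbers in the column names could not be tied to the replicate numbers of the sample titles. Of the 10 class I genes, the counts called were as follows where they moved. Counts over all genes are given for only some of these settings, so most of the counts have no background beside them. With total T cells against none, 8 became 0 within set B. With library set as a term, the counts against total T cells became 0 for T-bet (from 8), 0 for IFNg (from 9) and 0 for IL-17AF (from 1), and against no T cells 0 for IFNg (from 1), 5 for IL-17AF (from 2) and 6 for IL22 (from 0). It gave 6 for IL22 against IL6Ra/IL21R and 4 for IL-17AF against the mean of T-bet and IFNg (both from 0). For the T-bet, IFNg and IL-17AF groups this term rests on library M4 of the IL6Ra/IL21R group alone, the only set C library of a group found in another set. It also turned the sign against total T cells of H2-K1 (0.0455), H2-Q6 (0.81) and H2-Q7 (0.33) for T-bet and of H2-Q6 (0.0503) and H2-M3 (0.33) for IFNg, and of H2-T23 against no T cells for IFNg (0.27), none of them called. Without set C, the set term gave 4 for IL22 against none and 5 against IL6Ra/IL21R. IL22 against IL6Ra/IL21R gave 3 without the sex term, 6 within set B, 3 with scaling on other genes, 6 with DESeq2 and 8 with no filter. DESeq2 gave 3 for IL22 and 2 for IFNg against none. Females only gave 4 for IFNg against none. No filter gave 2 for IL-17AF and 1 for IL22 against total T cells, 3 for IFNg, 4 for IL-17AF and 5 for IL22 against none, and 5 for IL-17AF against the mean. The cause of these moves was not tested.

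Leaving out single libraries gave 8 to 9 for total T cells against none, 8 to 9 for any difference among groups, and, against total T cells, 2 to 9 for T-bet, 8 to 10 for IFNg, 8 to 9 for IL6Ra/IL21R, 0 to 2 for IL-17AF and 0 to 0 for IL22. Against none it gave 0 to 0 for T-bet, 0 to 5 for IFNg, 0 to 0 for IL6Ra/IL21R, 0 to 3 for IL-17AF and 0 to 2 for IL22. It gave 0 to 6 for IL22 against IL6Ra/IL21R, 0 to 1 for IL-17AF against the mean, 0 to 0 for T-bet against IFNg and 0 to 0 for the set difference of the T cell effect. Another scaling moved the median of all genes by under 0.1 (log2). Over all genes, counts called moved with the set term from 3798 to 6 for T-bet and from 4611 to 44 for IFNg against total T cells, and for IL22 against total T cells from 36 to 0 in females only, 4 without the sex term, 723 with DESeq2 and 1219 with no filter. Depth is lowest for Cd1d1, at 40 to 412 counts a library.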
